A study of Rattus norvegicus with 12 samples.

Results

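The natriuretic peptide system was described in adult rat ventricular myocytes (ARVMs) through 8 genes, chosen by name as the peptide precursors Nppa, Nppb, and Nppc, the receptors Npr1, Npr2, and Npr3, and the processing proteases Corin and Furin. These are 8 of the 17301 genes listed. RNA was sequenced from 12 samples, 6 transduced with Ad-GFP and another 6 with Ad-h-NR4A2, each at a multiplicity of infection of 50 for 48 h. Ad-h-NR4A2 is an adenovirus that carries the full-length human cDNA of the orphan nuclear receptor NR4A2 behind the constitutive cytomegalovirus promoter, and Ad-GFP is the control virus with green fluorescent protein, so that all samples were virus-transduced and none was left without virus. The ARVMs came from male Sprague-Dawley rats whose age is not given in the sources used here, and were cultured in medium with 2,3-butanedione monoxime, an inhibitor of contraction. Numbers from 24 to 29 identify the samples in each group, and samples that share a number are treated as a pair. The sample labels do not state what a number stands for, and the study describes 6 independent experiments with different rats. Expression is given as FPKM, fragments scaled to transcript length and to the mapped fragments of the sample, which allows levels of different genes to be set side by side.

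Natriuretic peptides are cardiac hormones that promote sodium excretion and vasodilation and that oppose cardiomyocyte growth. Nppa and Nppb encode the precursors of atrial natriuretic peptide (ANP) and brain natriuretic peptide (BNP), which are cleaved by the transmembrane serine protease corin and by furin and then act on the receptor guanylyl cyclase Npr1 to form cGMP. C-type natriuretic peptide, from Nppc, acts on the guanylyl cyclase Npr2, and Npr3 binds all of these peptides and removes them. In the healthy adult ventricle Nppa and Nppb are expressed at low levels, and both genes are classic markers of cardiac hypertrophy and of stretch.

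Whole fragments could be recovered from 99.2% to 99.9% of the low FPKM of a sample in transcripts of at least 800 nt, within a tolerance of 0.05. This gave a depth of 18600000 to 27800000 fragments for Ad-GFP and 21600000 to 27000000 for Ad-h-NR4A2. The row of rat Nr4a2, which can also take fragments of the human cDNA, averaged 0.884 FPKM after Ad-GFP and 524 FPKM after Ad-h-NR4A2, and was higher in all 6 pairs. The 8 cardiomyocyte markers summed to 32061 to 39034 FPKM after Ad-GFP and 28603 to 33939 after Ad-h-NR4A2. The 9 atrial markers summed to 45.4 to 87.4 FPKM after Ad-GFP and 32.3 to 64.7 after Ad-h-NR4A2. Sums of the fibroblast, endothelial, and smooth muscle lists were at most 30.3, 23.0, and 20.3 FPKM in any sample. The fibroblast collagen Col1a2 was listed at 0 in all samples, whereas the collagens Col1a1 and Col3a1 averaged 0.611 and 3.64 FPKM after Ad-GFP.

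**Figure D1:**
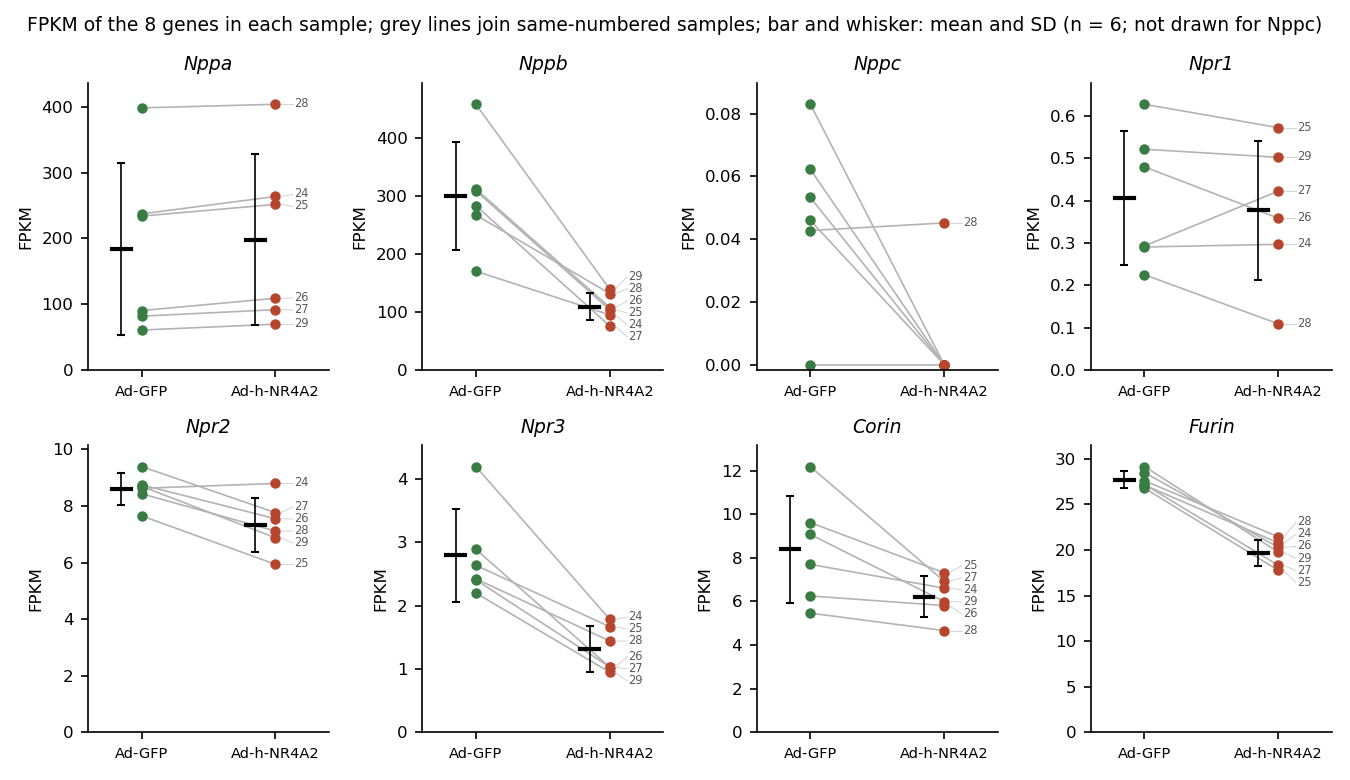
FPKM of each of the 8 genes (vertical axis, linear) in the 6 Ad-GFP samples (green) and the 6 Ad-h-NR4A2 samples (red), with grey lines joining same-numbered samples, numbers at the right, and the mean and SD beside the points. Nppb, Npr3, and Furin are lower in every Ad-h-NR4A2 sample than in any Ad-GFP sample, whereas the Nppa lines are nearly flat and spread from 60.9 to 404 FPKM.

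Mean levels ran from 0.406 FPKM (Npr1) to 300 FPKM (Nppb) with Ad-GFP, and Nppc lay below this range. The order of mean levels in this group was Nppb, Nppa, Furin, Npr2, Corin, Npr3, Npr1, and Nppc. With Ad-h-NR4A2 Nppa stood above Nppb, and the rest of the order was the same. Within each group, the ranges of neighbours in this order overlapped for Nppa and Nppb and for Npr2 and Corin, and for no other neighbours. Nppb ranked 380th by mean level among the 10950 genes tested after Ad-GFP and 994th after Ad-h-NR4A2. Nppa ranked 573rd and 549th.

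Nppa and Nppb lie head to tail on chromosome 5, and the sequence ahead of each start site is shown because the results turn on this neighbouring pair of ligand genes. Nppa is listed at chr5:168466309-168467618 and Nppb at chr5:168454331-168455633 in Rn5, with 10676 bp between them. RefSeq promoter sequences of the GRCr8 assembly, 250 bases before to 50 bases after the start, matched 6 of the 8 genes, all but Npr2 and Furin. The 250 bases before the start are printed for Nppa (GRCr8 chr5:163711934-163712183, plus strand) and Nppb (GRCr8 chr5:163699758-163700007, plus strand). Capitals mark matches on either strand of 3 motifs. GATAA is the core bound by zinc finger factors of the Gata family. TATAAA is the box near many transcription starts, and M-CAT, with the letters CATTCC, is bound by factors of the Tead family.
Nppa: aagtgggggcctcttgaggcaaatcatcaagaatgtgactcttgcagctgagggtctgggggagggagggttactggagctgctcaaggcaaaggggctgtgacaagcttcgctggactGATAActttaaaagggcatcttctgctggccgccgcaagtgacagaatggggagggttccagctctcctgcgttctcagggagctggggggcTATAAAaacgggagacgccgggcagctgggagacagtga
Nppb: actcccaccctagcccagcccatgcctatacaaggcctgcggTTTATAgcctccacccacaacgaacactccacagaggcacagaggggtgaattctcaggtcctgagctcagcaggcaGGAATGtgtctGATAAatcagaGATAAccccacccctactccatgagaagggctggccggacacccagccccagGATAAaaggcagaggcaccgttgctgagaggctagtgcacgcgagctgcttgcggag

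The Nppb window held 3 GATAA matches, 120, 109, and 57 bases before the start, and 1 M-CAT match on the reverse strand (GGAATG) 131 bases before it. The Nppa window held 1 GATAA, 131 bases before the start, and a TATAAA 39 bases before it. In Nppb the letters of TATAAA were found on the reverse strand, 208 bases before the start. Among 33469 rat promoter windows of the same length, 26.5% held a GATAA on either strand, 14.2% a CATTCC, and 14.2% a TATAAA. The response element of NR4A receptors, AAAGGTCA, was found in none of the 6 windows and in 1.43% of all windows. Its shorter core AGGTCA, which every match of the longer element also contains, was found in the window of Corin, 86 bases before the start, and in 16.2% of all windows. The cAMP response element TGACGTCA and the CArG box, a site of serum response factor, were found in none of the 6 windows and in 1.83% and 1.64% of all windows. These matches describe letters in a window and not binding.

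Nppa, the ANP precursor, varied widely between the samples of a group and little within pairs. With Ad-GFP its level in samples 24 to 29 was 237, 234, 90.6, 82.1, 398, and 60.9 FPKM. In the Ad-h-NR4A2 samples of the same numbers it was 264, 252, 109, 91.8, 404, and 69.8 FPKM. The order of the numbers was identical in both groups, with 28 highest, followed by 24, 25, 26, 27, and 29. The highest Ad-GFP sample exceeded the lowest 6.53 times, and the highest Ad-h-NR4A2 sample 5.79 times.

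The Nppa group means of 184 ± 131 (SD, n = 6) and 198 ± 131 FPKM did not differ beyond the spread between samples, with a log2 fold change of FPKM + 0.1 of 0.15 ± 0.52 (SE) and a limma p of 0.845 after Benjamini-Hochberg adjustment across all 10950 genes. The 95% interval of this estimate ran from a 0.508-fold to a 2.42-fold level. The two-sided exact permutation test over samples gave p = 0.764. Within pairs, Nppa was higher with Ad-h-NR4A2 in 6 of 6, by 1.38% to 20.6%. With a replicate block by sample number, the estimate was a 1.11-fold level (95% interval 1.06 to 1.17, log2 0.15 ± 0.03, limma adjusted p = 0.00298). Without the block the direction depended on single samples, since the log2 fold change was -0.02 without Ad-GFP sample 27, -0.10 without Ad-GFP sample 29, and -0.11 without Ad-h-NR4A2 sample 28, and up to 0.44 when another sample was left out. With the block it stayed between 0.13 and 0.18 when any number was left out.

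The spread of Nppa was set against that of all 10950 genes tested, as a description. Its SD within groups, on the log2 scale of FPKM + 0.1, was 1.044, larger than in 99.6% of genes and above the median of 0.158. The SD of its 6 log2 ratios within pairs was 0.0842, smaller than in 75.8% of genes and below the median of 0.135. No other of the 7 tested members had a within-group SD above 0.536 (Npr1), and Furin had the smallest, 0.0814.

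**Figure D2:**
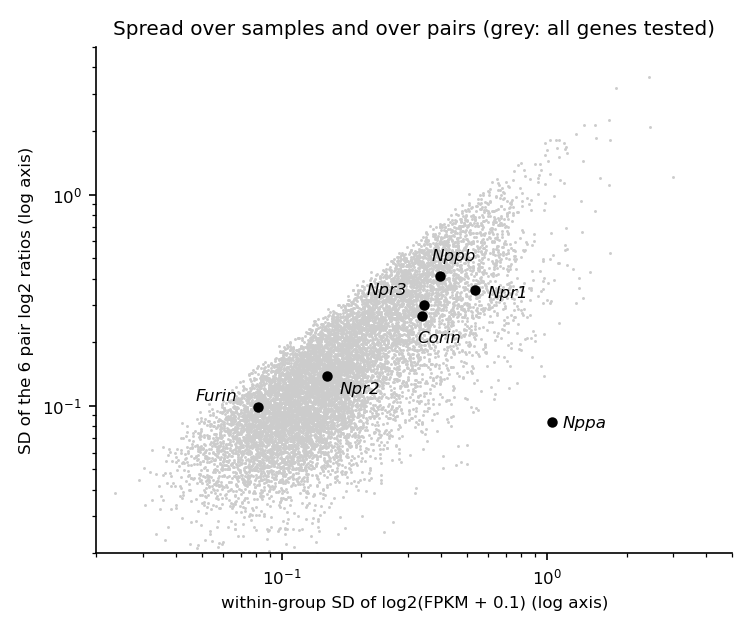
Within-group SD of log2(FPKM + 0.1) over samples (horizontal, log axis) against the SD of the 6 log2 ratios of same-numbered pairs (vertical, log axis), for the genes tested (grey, without 16 genes that lie below 0.02 on either axis) and 7 members (black). Nppa lies apart at the lower right, with 1.044 over samples and 0.0842 over pairs.

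Levels of atrial markers were compared with Nppa, because Nppa is abundant in atrial myocytes. Number 28, the highest in Nppa, had 1.06 FPKM of the atrial light chain Myl7 after Ad-GFP and 2.15 after Ad-h-NR4A2, and its atrial marker sums were 47.2 and 41.4 FPKM. The highest Myl7 (8.03 and 9.81 FPKM) and sarcolipin Sln (19.5 and 9.91 FPKM) were found at number 25, where Nppa was 234 and 252 FPKM. The atrial growth factor Bmp10 was listed at 0 in 8 of 12 samples and was at most 0.0967 FPKM. Numbers 24 and 25, which followed 28 in Nppa, had the 2 highest levels of Myl7 and the 2 highest atrial marker sums in both groups. Sln at number 29, the lowest in Nppa, was 6.95 FPKM after Ad-GFP and 8.26 after Ad-h-NR4A2, below only number 25. Number 27, next to lowest in Nppa, had 3.72 and 3.97 FPKM of Myl7, above number 28. Kcnj3, another gene of the list, averaged 37.7 and 30.0 FPKM and made up much of the sums. The order of the numbers thus differed between atrial markers and from that of Nppa. The part of atrial cells in the Nppa spread was not tested. Of 7 atrial markers tested, 2 were called, beside 15.2% of all genes and 7.24% called down. These were Myl4 and Nr2f1, both lower with Ad-h-NR4A2. Fewer cells of a type and less RNA per cell cannot be told apart in such bulk samples.

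Nppb, the BNP precursor, was lower in every Ad-h-NR4A2 sample than in any Ad-GFP sample. With Ad-GFP its level in samples 24 to 29 was 171, 309, 312, 283, 267, and 458 FPKM. With Ad-h-NR4A2 it was 95.2, 104, 108, 76.0, 132, and 139 FPKM. The reduction within pairs ranged from 44.2% at number 24, which had the least Nppb with Ad-GFP, to 73.2% at number 27. The mean fell from 300 ± 93.0 to 109 ± 23.4 FPKM (SD, n = 6), by 63.7%.

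The Nppb log2 fold change was -1.43 ± 0.20 (SE, limma adjusted p = 7.36e-05), with a 95% interval from 0.276-fold to 0.5002-fold. The exact permutation test gave p = 0.00216, the smallest it allows with 6 against 6 samples. The counts behind these values were 1745 to 6078 fragments after Ad-GFP and 785 to 1604 after Ad-h-NR4A2. They are approximate, because in transcripts close in length to Nppb (628 nt) whole fragments were recovered from 72.7% to 100% of the low values of a sample. The SD of the Nppb log2 ratios within pairs was 0.412 and its SD within groups was 0.395, where a ratio carries the spread of both its samples. With the replicate block the SE of the log2 fold change was 0.126, beside 0.199 without it.

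Cardiomyocyte markers also moved with Ad-h-NR4A2. Of the 8 tested, 6 had a limma adjusted p below 0.05, 5 of them lower, beside 40.9% of all genes, and the median log2 fold change was -0.24 beside -0.02 over all genes. The slow myosin heavy chain Myh7 (273 ± 75.4 to 154 ± 62.0 FPKM, SD, n = 6, limma adjusted p = 0.0146) and the calcium release channel Ryr2 (85.7 ± 9.90 to 53.4 ± 7.56 FPKM, limma adjusted p = 8.46e-05) were called, both lower in 6 of 6 pairs. The part of these markers in the differences of Nppb and Npr3 was not tested.

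The balance of the 2 ligand genes is given by their ratio. Nppb exceeded Nppa in 4 of 6 Ad-GFP samples and in 1 of 6 Ad-h-NR4A2 samples, number 29 with the least Nppa. The ratio of Nppb to Nppa FPKM was 0.671 to 7.51 after Ad-GFP (median 2.38) and 0.326 to 1.99 after Ad-h-NR4A2 (median 0.620). The log2 of this ratio averaged 0.97 ± 1.41 and -0.61 ± 1.024 (SD, n = 6), with p = 0.0498 in a two-sided exact permutation over samples, a test added after the values were seen. This p was 0.0563 to 0.0996 in 9 of 12 omissions of 1 sample, all but those of Ad-GFP sample 24 or 28 or Ad-h-NR4A2 sample 29. Within pairs the ratio was lower in all 6, at 0.240 to 0.502 of the Ad-GFP ratio. This follows from Nppb being lower and Nppa higher in every pair. An exact permutation of signs could therefore only give its smallest p, 0.0312, and adds no separate evidence. The sum of Nppa and Nppb FPKM was also lower with Ad-h-NR4A2 in 6 of 6 pairs.

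**Figure D3:**
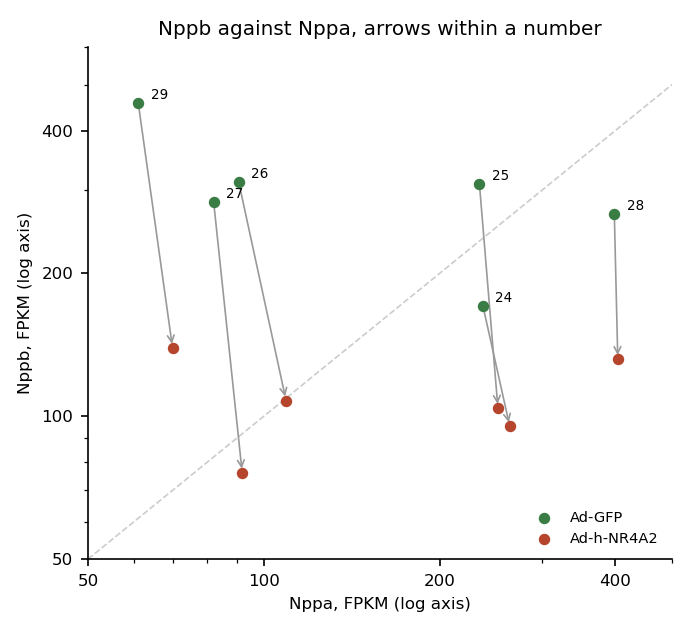
Nppb (vertical) against Nppa (horizontal), both in FPKM on log axes, for Ad-GFP (green) and Ad-h-NR4A2 (red), with an arrow from the Ad-GFP to the Ad-h-NR4A2 sample of each number and a dashed line of equal levels. All 6 arrows point nearly straight down, and 4 Ad-GFP samples but only 1 Ad-h-NR4A2 sample lie above the line.

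Nppc (Rn5 chr9:93458753-93462953), the precursor of C-type natriuretic peptide, which is best known from endothelium and growth plate cartilage, was barely detected. It was listed at 0 in 1 of 6 Ad-GFP and 5 of 6 Ad-h-NR4A2 samples. The others held 1 or 2 fragments each, at most 0.0831 FPKM, which is under the 3 fragments that a count of 0 allows. Nppc did not pass the filter on values of 0 and was not tested with the other members. In the fit without that filter it was called lower (0.0479 and 0.00753 FPKM, log2 fold change -0.45 ± 0.15, limma adjusted p = 0.0443), on 0 to 2 fragments a sample after Ad-GFP and 0 or 1 after Ad-h-NR4A2.

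Corin (Rn5 chr14:38058862-38284564), the cardiac protease that cleaves the ANP precursor, was lower with Ad-h-NR4A2 in 6 of 6 pairs, by 7.03% at number 26 to 43.1% at number 27. Its level in Ad-GFP samples 24 to 29 was 7.70, 9.62, 6.25, 12.2, 5.47, and 9.07 FPKM. In the matching Ad-h-NR4A2 samples it was 6.61, 7.32, 5.81, 6.93, 4.67, and 5.998 FPKM. The groups overlapped, with the Ad-GFP samples of numbers 26 and 28 below some of the Ad-h-NR4A2 samples. Means were 8.38 ± 2.45 and 6.22 ± 0.948 FPKM (SD, n = 6), a log2 fold change of -0.39 ± 0.18 (SE) that did not pass the test (limma adjusted p = 0.0934). The exact permutation test gave p = 0.0779. With the replicate block Corin passed on the adjusted p, at a limma adjusted p of 0.00484 and a 95% interval from 0.664-fold to 0.880-fold. Without the block, it also passed when Ad-GFP sample 28 was left out (log2 fold change -0.50, limma adjusted p = 0.0258). In neither fit did the group means reach the 1.5-fold limit, so that Corin was not called.

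Furin (Rn5 chr1:143137723-143150202), the general proprotein convertase of the secretory pathway that cleaves the BNP precursor, was the member with the least spread. With Ad-GFP it lay between 26.8 and 29.2 FPKM (median 27.4), and with Ad-h-NR4A2 between 17.8 and 21.4 FPKM (median 20.0). The groups did not overlap, and all 6 pairs fell, by 22.3% to 33.7%. The mean dropped from 27.7 ± 0.917 to 19.7 ± 1.43 FPKM (SD, n = 6), with a log2 fold change of -0.49 ± 0.05 (SE, limma adjusted p = 6.34e-06, exact permutation p = 0.00216). The reduction of 28.8% is under the 1.5-fold limit that the study set for differential expression.

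Npr3 (Rn5 chr2:82741077-82801473), the clearance receptor, fell by more than any other tested member but Nppb. Its levels in Ad-GFP samples 24 to 29 were 4.19, 2.64, 2.41, 2.89, 2.42, and 2.20 FPKM, from 77 to 143 fragments. With Ad-h-NR4A2 they were 1.78, 1.67, 1.032, 1.029, 1.44, and 0.949 FPKM, from 34 to 71 fragments. No Ad-h-NR4A2 sample reached the lowest Ad-GFP sample. The mean decreased by 52.8%, from 2.79 ± 0.726 to 1.32 ± 0.362 FPKM (SD, n = 6), and pairs decreased by 36.8% to 64.4%. The log2 fold change was -1.035 ± 0.19 (SE, limma adjusted p = 5.73e-04, exact permutation p = 0.00216). Number 24 was highest in both groups, and without its Ad-GFP sample the log2 fold change was -0.91 (limma adjusted p = 9.30e-04).

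In the heart Npr3 is also known from endocardium and fibroblasts, so markers of these cells are given beside it. Of 7 endothelial and endocardial markers, 0 passed the limma test and 0 had an unadjusted p below 0.05, and 1 (Kdr) passed with the replicate block. Their summed level was 7.31 to 23.0 FPKM after Ad-GFP and 6.27 to 22.2 after Ad-h-NR4A2. Of 6 fibroblast markers tested, Col3a1 fell, from 3.64 ± 1.42 to 1.78 ± 0.560 FPKM (SD, n = 6, log2 fold change -0.94, limma adjusted p = 0.0239), and 5 did not pass. With the replicate block 3 passed, beside 59.4% of all genes. Col1a1 (block adjusted p = 0.00616) and Pdgfra (block adjusted p = 0.0101) were lower in 6 of 6 pairs, as were 29.1% of all genes. The median log2 fold change of the list was -0.33. The fibroblast list summed to 9.05 to 30.3 FPKM after Ad-GFP and 5.82 to 26.6 after Ad-h-NR4A2. Of 3 smooth muscle markers tested, 1 was called, beside 15.2% of all genes. Myh11 fell from 3.05 ± 0.462 to 1.97 ± 0.374 FPKM (SD, n = 6, log2 fold change -0.61, limma adjusted p = 0.00284). Tagln (-0.13, adjusted p = 0.580) and Acta2 (0.03, adjusted p = 0.972) did not pass, and each was lower in 3 pairs and higher in 3. The part of these cells in the Npr3 difference was not tested.

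Npr2 (Rn5 chr5:63653695-63672103), the guanylyl cyclase receptor of C-type natriuretic peptide, was the most abundant receptor gene. With Ad-GFP it lay between 7.65 and 9.39 FPKM (median 8.66), and with Ad-h-NR4A2 between 5.93 and 8.79 FPKM (median 7.33). It was lower with Ad-h-NR4A2 in 5 of 6 pairs, and at number 24 it was 1.97% higher. Means of 8.59 ± 0.563 and 7.34 ± 0.956 FPKM (SD, n = 6) gave a log2 fold change of -0.23 ± 0.09 (SE, limma adjusted p = 0.0467, exact permutation p = 0.0281). This adjusted p was close to the threshold and passed it in 10 of 22 alternatives. It was 0.0523 to 0.0950 when 1 of 10 samples was left out, each except Ad-GFP sample 25 and Ad-h-NR4A2 sample 24, and 0.00687 with the replicate block.

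Npr1 (Rn5 chr2:209271276-209286963), the guanylyl cyclase receptor of ANP and BNP, was low in every sample. Ad-GFP samples held 24 to 57 fragments and Ad-h-NR4A2 samples 11 to 61, with medians of 0.386 and 0.390 FPKM. The groups overlapped widely, with number 25 highest and number 28 lowest in both. Means were 0.406 ± 0.159 and 0.377 ± 0.164 FPKM (SD, n = 6), lower in 4 pairs and higher in 2. The log2 fold change of -0.12 ± 0.28 (SE, limma adjusted p = 0.771) had a 95% interval from 0.606-fold to 1.404-fold, and it was 0.10 without Ad-h-NR4A2 sample 28.

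Over the 7 members that could be tested, 2 were differentially expressed at an adjusted p below 0.05 with group means at least 1.5-fold apart, Nppb and Npr3, both downregulated. By the same rule 15.2% of the 10950 genes were called, 7.24% down and 7.94% up. With the adjusted p alone, 4 members passed (Nppb, Npr3, Furin, and Npr2, all lower), beside 40.9% of all genes, and 21.7% in that direction. The Ad-GFP and Ad-h-NR4A2 values did not overlap for 3 members and for 21.5% of all genes. All 6 pairs moved the same way for 5 members, 4 of them lower, and for 53.2% of all genes, with 29.1% lower and 24.1% higher. The median log2 fold change was -0.39 over the members and -0.02 over all genes. With the replicate block 6 members passed, 5 lower and Nppa higher, beside 59.4% of all genes.

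**Figure D4:**
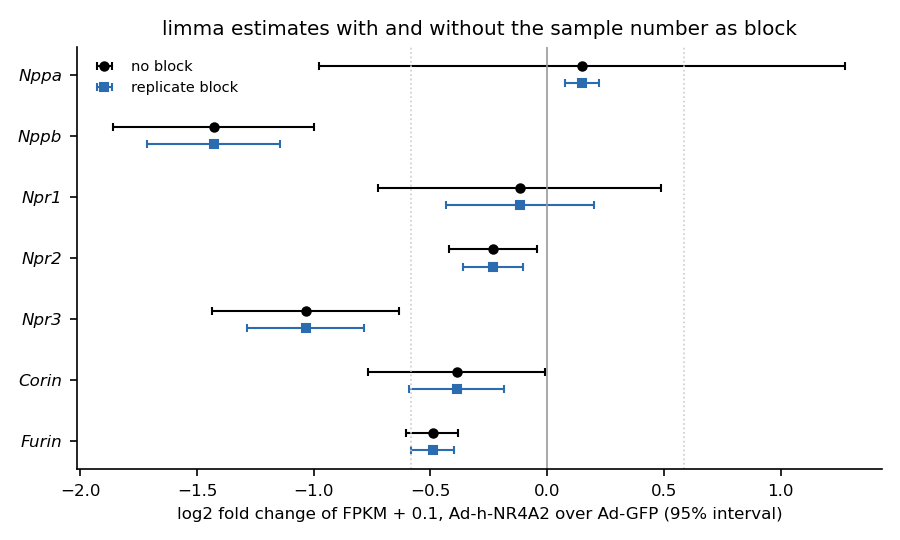
Log2 fold change of FPKM + 0.1 (horizontal, Ad-h-NR4A2 over Ad-GFP) with 95% intervals for the 7 tested members, from limma without (black) and with (blue) the sample number as a block; dotted lines mark a 1.5-fold change. The estimates are the same in both fits, while the Nppa interval of -0.98 to 1.28 narrows to 0.08 to 0.22, and the intervals of Nppb and Npr3 lie beyond the dotted line in both.

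Genes beside the ligand genes were examined next. Of the 8 nearest listed genes around Nppb and Nppa, counted as 4 on each side and without the pair itself, 7 were tested and 1 was differentially expressed, compared with 15.2% of all genes. Plod1, a collagen lysyl hydroxylase 48797 bp from Nppb, fell from 20.4 ± 3.03 to 13.6 ± 1.90 FPKM (SD, n = 6, log2 fold change -0.59 ± 0.11, limma adjusted p = 8.14e-04). Agtrap, which encodes a protein bound to the angiotensin receptor, was lower by less than the 1.5-fold limit (log2 fold change -0.32, adjusted p = 0.00293). Clcn6, a chloride transporter gene 3946 bp from Nppa, went from 4.64 ± 0.386 to 3.91 ± 0.555 FPKM (limma adjusted p = 0.0580, and 0.00580 with the block). The mitochondrial fusion gene Mfn2 (log2 fold change 0.02), RGD1305350 (-0.13), Mad2l2 (0.14), and Fbxo6 (-0.09) had an adjusted p from 0.117 to 0.742. With the block RGD1305350 (adjusted p = 0.00410), Fbxo6 (0.0208), and Mad2l2 (0.0325) passed as well, by less than 1.5-fold. Miip was listed at 0 in some samples and was not tested. None of the 7 tested changed as much as Nppb.

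Around Corin 2 of 8 neighbours were tested and 0 were called by both criteria, beside 15.2% of all genes. Nfxl1 was lower by less than 1.5-fold (log2 fold change -0.33, limma adjusted p = 0.00169, unadjusted p = 3.11e-04), and Commd8 was at -0.06 (adjusted p = 0.303). Txk, Nipal1, Cnga1, Gabrb1, Gabra4, and Gabra2 were listed at 0 in some samples and were not tested. Of these Nipal1, 120300 bp from Corin, averaged 0.00502 ± 0.0123 FPKM after Ad-GFP and 0.949 ± 0.639 FPKM after Ad-h-NR4A2 (SD). Its values were singled out after they were seen. The others averaged at most 0.305 FPKM in either group. Around Furin 7 of 8 were tested and, beside 15.2% of all genes and 7.94% called up, 2 were called, both upregulated. These were Wdr73 (5.67 to 10.01 FPKM, log2 fold change 0.81), 513924 bp from Furin, and Sec11a, a subunit of the signal peptidase (41.0 to 69.3 FPKM, 0.75), 535392 bp from it. Nearer to Furin, Man2a2 (-0.35, adjusted p = 0.00110) and Unc45a (-0.23, adjusted p = 0.0162) were lower, as was Furin, whereas Hddc3, Fes, and Iqgap1 did not pass, and Nmb was not tested.

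Downstream of the receptors, cGMP is formed by guanylyl cyclases, acts on protein kinase G and channels, and is degraded by phosphodiesterases. Of 20 tested genes of cGMP formation, action, breakdown, and export, 6 rose and 5 fell, while 15.2% of all genes were called, and the median log2 fold change was 0.04 beside -0.02 over all genes. Gucy2c, the guanylyl cyclase receptor of guanylin, rose from 0.100 ± 0.0519 to 1.91 ± 0.607 FPKM (SD, n = 6, log2 fold change 3.31, limma adjusted p = 1.38e-07). Among enzymes that hydrolyze cGMP, Pde2a rose from 4.67 ± 1.58 to 16.03 ± 4.67 FPKM (1.77, adjusted p = 4.14e-05) and Pde5a from 0.0693 ± 0.0577 to 0.334 ± 0.163 FPKM (1.34, adjusted p = 0.00115). Pde3b, which is inhibited by cGMP, fell from 1.09 ± 0.244 to 0.408 ± 0.104 FPKM (-1.22, adjusted p = 8.31e-05). The more abundant Pde3a, of the same family, went the other way, from 19.3 ± 1.82 to 32.1 ± 3.36 FPKM (0.73, adjusted p = 7.80e-06). The cyclic nucleotide exporter Abcc4 rose from 16.6 ± 3.28 to 38.1 ± 4.205 FPKM (1.21, adjusted p = 2.75e-06). The kinase gene Prkg1 was higher in 6 of 6 pairs, from 7.48 ± 0.774 to 9.52 ± 1.07 FPKM, by less than the 1.5-fold limit (0.34, adjusted p = 0.00610).

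Of 13 tested genes of peptide processing and breakdown, 1 was differentially expressed, compared with 15.2% of all genes, and the median log2 fold change was -0.10. Pcsk5, a proprotein convertase related to furin, rose from 0.193 ± 0.0754 to 1.22 ± 0.395 FPKM (SD, n = 6, log2 fold change 2.16, limma adjusted p = 5.31e-06) and was higher in 6 of 6 pairs. The ranges of Pcsk5 and Furin stayed apart, with at most 1.81 FPKM of Pcsk5 in any sample. Cpe, a carboxypeptidase that trims peptide hormones, fell from 387 ± 10.2 to 295 ± 7.79 FPKM (-0.39, adjusted p = 5.88e-07), by less than 1.5-fold. Genes listed at 0 in a sample, 13 of the 26 in this list, were not tested, so that the share called leaves them out. Among them Mep1a, a subunit of the metalloprotease meprin and chosen here after its values were seen, lay between 0 and 0.0906 FPKM with Ad-GFP and between 1.45 and 2.64 with Ad-h-NR4A2. Mme, which encodes neprilysin, was at most 0.125 FPKM in any sample.

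The transcription factors known to act at Nppa or Nppb contained 29 tested genes, of which 1 rose and 6 fell, while 15.2% of all genes were called, with a median log2 fold change of -0.09. Irx4, a ventricular homeobox repressor, fell most, from 10.0 ± 3.16 to 2.97 ± 1.19 FPKM (SD, n = 6, log2 fold change -1.76, limma adjusted p = 2.44e-04). Hand2 (69.4 ± 6.33 to 36.2 ± 5.73 FPKM, -0.94), Tbx5 (5.69 ± 0.744 to 3.09 ± 0.503 FPKM, -0.86), and Myocd, the coactivator of serum response factor (2.77 ± 0.471 to 1.56 ± 0.206 FPKM, -0.78), also fell. Tbx20 rose from 32.2 ± 3.35 to 64.9 ± 13.4 FPKM (1.00, adjusted p = 1.23e-05). The other 2 genes called were Gata4 (38.4 ± 3.21 to 22.8 ± 2.87 FPKM, -0.76, adjusted p = 1.23e-05) and Tead1 (51.3 ± 2.64 to 31.7 ± 3.47 FPKM, -0.70, adjusted p = 2.87e-06), both lower in 6 of 6 pairs. Ad-GFP sample 25 was the lowest of its group in Gata4, at 32.2 FPKM. Their families bind the GATAA and CATTCC elements marked in the sequences above, and whether they occupied these was not measured. Nkx2-5, a homeobox factor also known to bind the Nppa promoter, averaged 62.4 ± 10.8 and 63.6 ± 5.70 FPKM (0.04, adjusted p = 0.779).

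Nppa and Nppb are often measured together with other genes of load and hypertrophy, and 19 of these were tested. Of these genes 4 rose and 4 fell, beside 15.2% called among all genes, with a median log2 fold change of -0.09. Those that rose included Fhl1, a four-and-a-half LIM protein (96.2 ± 36.1 to 1587 ± 260 FPKM, SD, n = 6, log2 fold change 4.10), the matricellular gene Cyr61 (8.64 ± 1.54 to 135 ± 18.5 FPKM, 3.95), and Csrp3, the muscle LIM protein (904 ± 163 to 2765 ± 423 FPKM, 1.62). Rcan1, a calcineurin inhibitor and calcineurin target, fell from 461 ± 107 to 113 ± 26.01 FPKM (-2.03), and the stress cytokine Gdf15 from 125 ± 50.1 to 51.8 ± 24.4 FPKM (-1.29, limma adjusted p = 0.0110). Skeletal actin Acta1, a further fetal gene named here after its values were seen, averaged 581 ± 157 and 544 ± 157 FPKM (-0.10, adjusted p = 0.738). Thus genes of the list were called in both directions. Fhl1 was represented by 1 of its 5 transcripts, and Ad-GFP sample 29 was the highest of its group in Fhl1 (165 FPKM) and Cyr61 (11.7 FPKM).

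**Figure D5:**
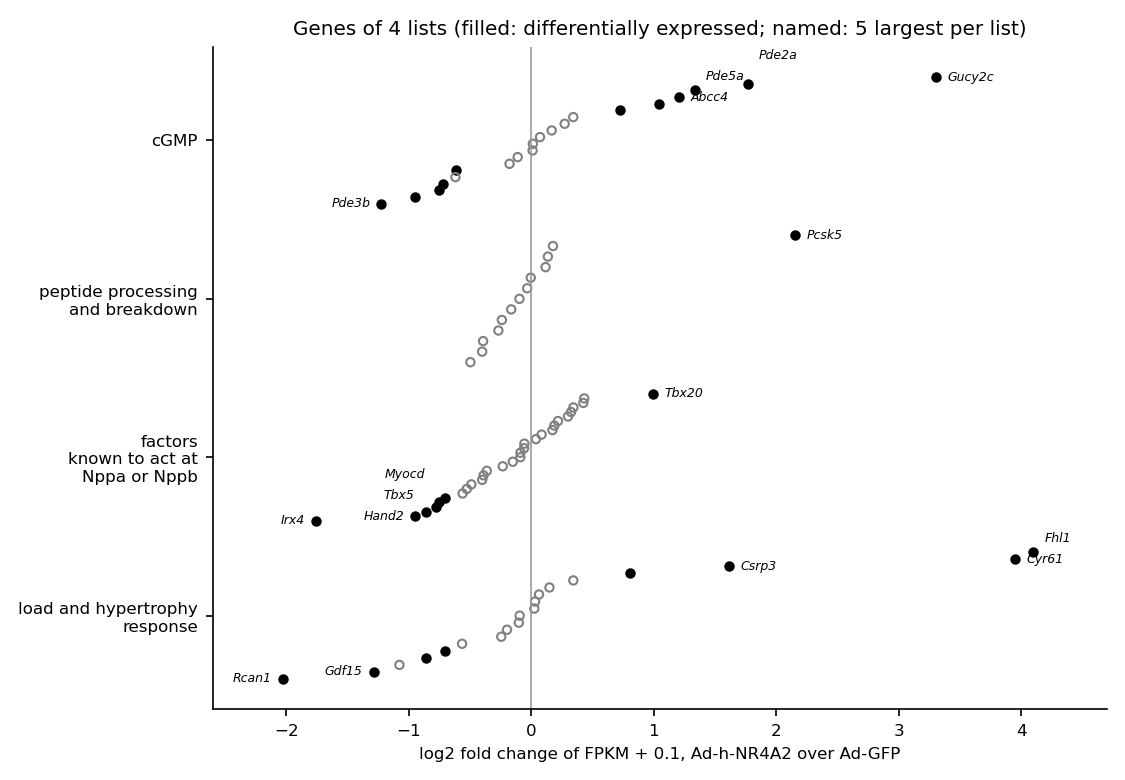
Log2 fold change of FPKM + 0.1 (horizontal, Ad-h-NR4A2 over Ad-GFP) for each tested gene of 4 lists, sorted within a list; filled points are differentially expressed and the 5 largest changes of a list are named. The cGMP and load lists have filled points on both sides of 0, whereas 6 of 7 filled points of the factor list lie below 0.

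The macrophage markers summed to 6.06 to 17.3 FPKM after Ad-GFP and 38.9 to 45.4 after Ad-h-NR4A2. Most of this sum was the single gene Csf1r, and the markers did not all move. Of 3 tested, 2 were called, both up, beside 15.2% of all genes and 7.94% in that direction. Csf1r rose from 10.1 ± 3.87 to 40.2 ± 2.35 FPKM (SD, n = 6, limma adjusted p = 2.15e-06) and Cd14 from 0.222 ± 0.150 to 1.19 ± 0.587 FPKM (adjusted p = 4.93e-04). The macrophage gene Cd68 averaged 0.463 ± 0.194 and 0.482 ± 0.210 FPKM (adjusted p = 0.905), and the leukocyte gene Ptprc averaged 0.0258 and 0.0218 FPKM. The part of these genes in the differences of Nppb and Npr3 was not tested.

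To describe which genes shared the sample-to-sample pattern of the ligands, Pearson's r of the deviations from the group means of log2(FPKM + 0.1) was taken over the 12 samples for 8977 genes of at least 1 FPKM. The closest to Nppa were Usp24 (r = 0.963), Ints12 (0.944), Dync2h1 (0.943), Smarcc1 (0.943), and Rap2c (0.941). The closest to Nppb were Rph3al (0.917), Tspan7 (0.916), Tsc22d1 (0.889), Emilin1 (0.887), and Mfap3l (0.885). The lists share no gene, and between Nppa and Nppb r was -0.32. Of the genes most like Nppb, Emilin1 also fell with Ad-h-NR4A2 (log2 fold change -1.54), whereas Tsc22d1 rose (1.10). Same-numbered samples deviated together, so that these values rest on 6 numbers more than on 12 separate samples.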

How the data were processed

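RNA of 12 ARVM samples, 6 per group by the sample labels, was sequenced as stranded mRNA libraries in 1 pooled paired-end run. The authors aligned reads to Rn5 with STAR and quantified RefSeq transcripts with Cufflinks. FPKM, as deposited by the authors, scale fragments to transcript length and to the mapped fragments of a sample and are not counts. Of 18752 transcripts with 17301 gene names, 8 values carried a failed status, none of them in the 8 genes described, which have 1 transcript each.

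For genes with several transcripts, the most abundant one on average was taken, and 10950 genes with no value of 0 were kept. The test was limma 3.58.1 (R 4.3.3) on log2(FPKM + 0.1), with a mean-variance trend, two-sided, adjusted after Benjamini-Hochberg, and, as in the study, without pairing. Differential expression means an adjusted p below 0.05 with group mean FPKM at least 1.5-fold apart. Exact permutation tests ran over all 924 splits. Python 3.11.15, pandas 2.3.3, NumPy 2.4.6, and Matplotlib 3.10.9 were used, and the fit was tested on simulated data. Fragment numbers cover counting error only.

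Deviations from the group means of same-numbered samples correlated in all 6 pairs (r = 0.347 to 0.623), and each sample correlated best with its own number, so that the numbers were taken to pair the samples. A replicate block by sample number was an alternative. Others were pseudocounts of 1 and 0.01, all genes unfiltered, genes averaging 1 FPKM or more, the TPM scale, quantile normalization, no trend, other choices of transcript, a ratio of at least 2, and each sample left out. The block combined with scaling or with a number left out was added after seeing the data. The 8 genes and all lists were chosen with earlier results of these data known. Named genes are the 8 members, the 5 largest changes among called genes of each pathway list, neighbours of Nppa, Nppb, Corin, and Furin, and the 5 genes most like Nppa and Nppb. Prkg1, Pde3a, Cpe, Mep1a, Pcsk2, Pcsk1, Mme, Nkx2-5, Acta1, and single marker genes were named after their values were seen. Promoters are RefSeq sequences of GRCr8 and were not joined to Rn5 coordinates. The Cufflinks confidence limits and q values were not used here.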

Additional observations from a re-analysis of the deposited data

Results flagged for a closer look

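In 5 of 68 groups of 6 samples, drawn from 34 genes, a single sample lay apart from the other 5 by more than the 95% critical share of the range in Dixon's test. Chance flags about 1 in 20 groups. Npr3 was 4.19 FPKM in Ad-GFP sample 24, with 2.89 in the next sample. Nppc was 0.0452 FPKM, 1 fragment, in Ad-h-NR4A2 sample 28 and listed at 0 in the others of that group. Cyr61 was 11.7 FPKM and Fhl1 165 FPKM in Ad-GFP sample 29, with 8.25 and 98.5 in the next samples. Gata4 was lowest in Ad-GFP sample 25, at 32.2 FPKM, with 38.4 in the next. Npr3 remained lower with Ad-h-NR4A2 without sample 24 of Ad-GFP (log2 fold change -0.91, limma adjusted p = 9.30e-04).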

How the results depend on the processing

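Nppb, Npr3, and Furin kept their direction and passed an adjusted p of 0.05 in 22 of 22 alternatives, and 2 members were called in 22 of 23 alternatives, including a ratio of at least 2. Without the filter 3 were called, the third being Nppc (log2 fold change -0.45), with at most 2 fragments a sample. The log2 fold change of Npr3 was -0.71 with a pseudocount of 1. With a ratio of at least 2, 803 genes were called, 493 up and 310 down. The replicate block, with pairing by sample number, raised Nppa past the threshold at the same log2 fold change of 0.15 (limma adjusted p = 0.00298), also on the TPM scale (0.13), with quantile normalization (0.11), and with each number left out in turn (0.13, 0.14, 0.15, 0.15, 0.16, and 0.18). The block also took the adjusted p of Corin below 0.05 and gave 6 members with an adjusted p below 0.05. The 2 members called with the 1.5-fold limit stayed the same. It called 1825 genes, 936 up and 889 down.

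Nppa turned negative without Ad-GFP sample 27 (-0.02) or 29 (-0.10) or Ad-h-NR4A2 sample 28 (-0.11), within a range of -0.11 to 0.44 over all samples left out. Npr1 became 0.10 without Ad-h-NR4A2 sample 28, within -0.23 to 0.10. Over these omissions Nppb stayed between -1.58 and -1.30, 1541 to 1769 genes were called, and 3 or 4 members had an adjusted p below 0.05. Npr2 missed the threshold in 12 of 22 alternatives, among them no filter (adjusted p = 0.0696) and the TPM scale (0.0526). The median log2 fold change of all genes was -0.02, and -0.04 on the TPM scale and with quantile normalization. Depth limits Nppc, with 0 to 2 fragments, and Npr1, with 11 to 61.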
